A study of Mus musculus with 6 samples.

Results

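The microRNAs miR-365 and miR-193, transcribed from neighbouring genes in a conserved cluster, were followed across mouse embryoid bodies with different forms of human BRCA1. The array held 1 probe for either microRNA, so these were 2 of 334 mouse microRNA probes, and both were among the 294 that were bright enough to be tested. They were taken by the names of the array's design, mmu-miR-365 and mmu-miR-193. miR-365 was picked because it was low in the R1699Q embryoid bodies, and miR-193 because its gene lies beside that of miR-365. The values of miR-365 in both comparisons of R1699Q, and those of miR-193 in R1699Q against wild type, are therefore given as a description with no test.

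Embryoid bodies are clumps of embryonic stem cells that have started to differentiate, and these were harvested at day 7. RQ embryoid bodies carried human BRCA1 with the missense change R1699Q, MI embryoid bodies carried human BRCA1 with M1652I, and WT embryoid bodies carried wild type human BRCA1, with 2 arrays for each of the 3 groups. The strain was given as 129S7/SvEv Brd-Hprt b-m2 in all groups. Whether the mouse Brca1 gene was intact, how human BRCA1 was driven and how many stem cell clones stood behind a group are not given in the sources used here. BRCA1 is a tumour suppressor that acts in DNA repair and transcription, and both changes lie in its BRCT repeats, a protein-binding region. The labels call the arrays of a group biological replicates without saying that they came from separate cultures, so the p-values cover no more than the spread among these arrays, part or all of which may be technical.

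A microRNA is a short RNA, cut from a hairpin precursor, that pairs through its seed (bases 2 to 8) with messenger RNAs and lowers their output. The miR-193 and miR-365 cluster is best known from mouse fat, where it is abundant in brown adipocytes and has been reported to favour brown fat over muscle differentiation of precursor cells in culture. The cluster lies at 2 places in the mouse genome, as set out below. The miR-193 probe matches the miR-193a arm, so its values need not bear on the place studied in fat. miR-193a is also known as a microRNA silenced in some human tumours.

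The sequences below are shown because they set what either probe can measure. Coordinates and mature sequences are those of RefSeq for GRCm38.p6, all on the plus strand and written from the 5′ end, with the seed in capitals. The mouse genome holds the cluster at 2 places. On chromosome 11, Mir193a (mature arm at chr11:79712009-79712030) lies upstream of Mir365-2 (chr11:79726467-79726488), with 14365 bases between the hairpins. No other gene in the RefSeq gene table overlapped these hairpins. On chromosome 16, Mir193b (chr16:13449570-13449591) lies upstream of Mir365-1 (chr16:13453895-13453916), with 4238 bases between the hairpins. Both chromosome 16 hairpins lie within the span of the long noncoding RNA genes Gm32817 and Gm53058, on a strand that the table does not give.
miR-365-3p: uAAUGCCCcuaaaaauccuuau
miR-193a-3p: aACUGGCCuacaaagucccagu
miR-193b-3p: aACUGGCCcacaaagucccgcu

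The seed of miR-365-3p, AAUGCCC, occurred in 1 of 1679 mature mouse names in the RefSeq table, so miR-365 has no seed relative there. The seed ACUGGCC occurred in 2 names, miR-193a-3p and miR-193b-3p. Those 2 arms differ by 3 substitutions, U9C, A20G and G21C, with positions counted from 1 at the 5′ end and the miR-193a-3p base first. miR-365-3p is identical from both of its genes. The hairpins differ around it, as shown here with the mature arm in capitals.
Mir365-2: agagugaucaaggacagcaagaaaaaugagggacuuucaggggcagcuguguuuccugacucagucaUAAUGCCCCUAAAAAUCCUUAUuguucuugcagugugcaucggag
Mir365-1: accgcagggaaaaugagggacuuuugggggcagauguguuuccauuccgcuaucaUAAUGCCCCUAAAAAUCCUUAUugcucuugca

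The probes were 60 bases long, with the complement of the microRNA (capitals) ahead of a stem whose last 33 bases were common to all 334 probes.
miR-365 probe: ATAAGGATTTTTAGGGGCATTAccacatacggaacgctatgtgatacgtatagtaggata
miR-193 probe: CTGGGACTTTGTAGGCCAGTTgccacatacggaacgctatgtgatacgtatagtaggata
The miR-365 probe matched all 22 bases of miR-365-3p. It therefore reads the sum of the chromosome 11 and chromosome 16 genes, which cannot be told apart. The miR-193 probe matched 21 bases of miR-193a-3p, the chromosome 11 arm. All 3 substitutions of miR-193b-3p fall within those bases, and how much of miR-193b-3p the probe also bound was not tested. No other mouse probe on the array was close in sequence, with at least 10 mismatches for miR-365 and at least 9 for miR-193.

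Each array carried 2 dyes. Per the labels, Cy3 held the RNA of the group itself, while Cy5 held wild-type RNA throughout, without a dye swap. The 6 arrays shared 1 slide, on which both WT arrays lay in one row and the RQ and MI arrays in the other. Slide row and the contrast of either mutant with WT therefore cannot be told apart, whereas RQ and MI arrays shared a row. The number of arrays limits the precision. In Cy3, the RQ arrays each gave 241 probes well above background, the MI arrays 249 and 248 and the WT arrays 255 each. Of 11 listed microRNAs of embryonic stem cells, 7 were on the array, and all 7 gave a clear Cy3 signal on every array. Negative control spots were brighter on the RQ arrays, with mean net Cy3 intensities of 93.05 and 102.8, against 43.79 and 59.37 on the MI arrays and 59.44 and 43.84 on the WT arrays.

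All 4 spots of either probe were well above background in both dyes on all 6 arrays, with 0 spots marked as outliers and 0 saturated. The net intensities that follow are the mean spot brightness minus the local background, in arbitrary units, before any normalization. The 4 spots of an array are repeat readings of the same sample, not replicates of a group. The share of tested probes whose spots did not overlap between groups was not counted.

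miR-365 was dimmest in Cy3 in RQ embryoid bodies. Its net Cy3 intensity was 154 and 144 on the RQ arrays, 178 and 221 on the MI arrays, and 241 and 211 on the WT arrays. Both RQ arrays lay below all 4 others, and the share of tested probes that did so in net Cy3 was not counted. Single RQ spots ran between 126 and 167, MI spots between 160 and 234 and WT spots between 194 and 259, so RQ and WT spots did not overlap, whereas RQ and MI spots did. Against WT, the group mean was 0.660 as high in RQ and 0.883 as high in MI. The median over all tested probes was 1.43 in RQ against WT and 1.05 in MI against WT, so the median probe was brighter on the RQ arrays while miR-365 was dimmer.

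The miR-365 spots stood closer to the negative controls on the RQ arrays. Net Cy3 was 1.66 and 1.40 times the negative control mean on the RQ arrays, 4.05 and 3.73 times on the MI arrays, and 4.06 and 4.80 times on the WT arrays. With that mean taken off, miR-365 kept 61.2 and 40.8 units on the RQ arrays, 134 and 162 on the MI arrays, and 182 and 167 on the WT arrays. The RQ group was then at 0.293 of WT, a lower ratio than the 0.660 of the net intensities. The size of the difference thus depended on what was taken as background, and its direction was the same under both.

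miR-193 was also dimmest in Cy3 in RQ embryoid bodies. Its net Cy3 intensity was 158 and 166 on the RQ arrays, 215 and 230 on the MI arrays, and 183 and 230 on the WT arrays. The groups RQ and WT did not overlap between arrays, but the lower WT array came near the RQ arrays, and single spots overlapped (135 to 177 in RQ, 170 to 240 in WT). The share of tested probes without overlap between these arrays in net Cy3 was not counted. The MI spots, at 192 to 246, lay wholly above the RQ spots. With the negative control mean taken off, miR-193 kept 64.7 and 63.2 units on the RQ arrays, 171 and 170 on the MI arrays, and 124 and 186 on the WT arrays. The RQ group was at 0.784 of WT in net Cy3 and at 0.413 of WT after this subtraction.

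The Cy5 channel was not level across arrays, although the labels give the same kind of RNA throughout. For miR-365, net Cy5 was 937 and 973 on the RQ arrays, 1117 and 1168 on the MI arrays, and 1324 and 1261 on the WT arrays. For miR-193 it was 202 and 207 on the RQ arrays, 220 and 237 on the MI arrays, and 254 and 249 on the WT arrays. Both probes were thus dimmest on the RQ arrays in this dye too, at 0.739 (miR-365) and 0.814 (miR-193) of WT, where the median tested probe was at 0.865. A ratio of Cy3 to Cy5 takes these differences off those of Cy3.

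The dyes differed more for miR-365 than for miR-193. The net Cy5 of miR-365 was between 5.28 and 6.77 times its net Cy3 over the 6 arrays, and 5.49 and 5.99 times on the WT arrays, where both dyes should hold wild-type RNA, per the labels. For miR-193 the same ratio ran from 1.03 to 1.39. Without a dye swap, a dye effect and a difference between the 2 wild-type RNAs cannot be told apart, and only differences between groups are compared below.

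**Figure D1:**
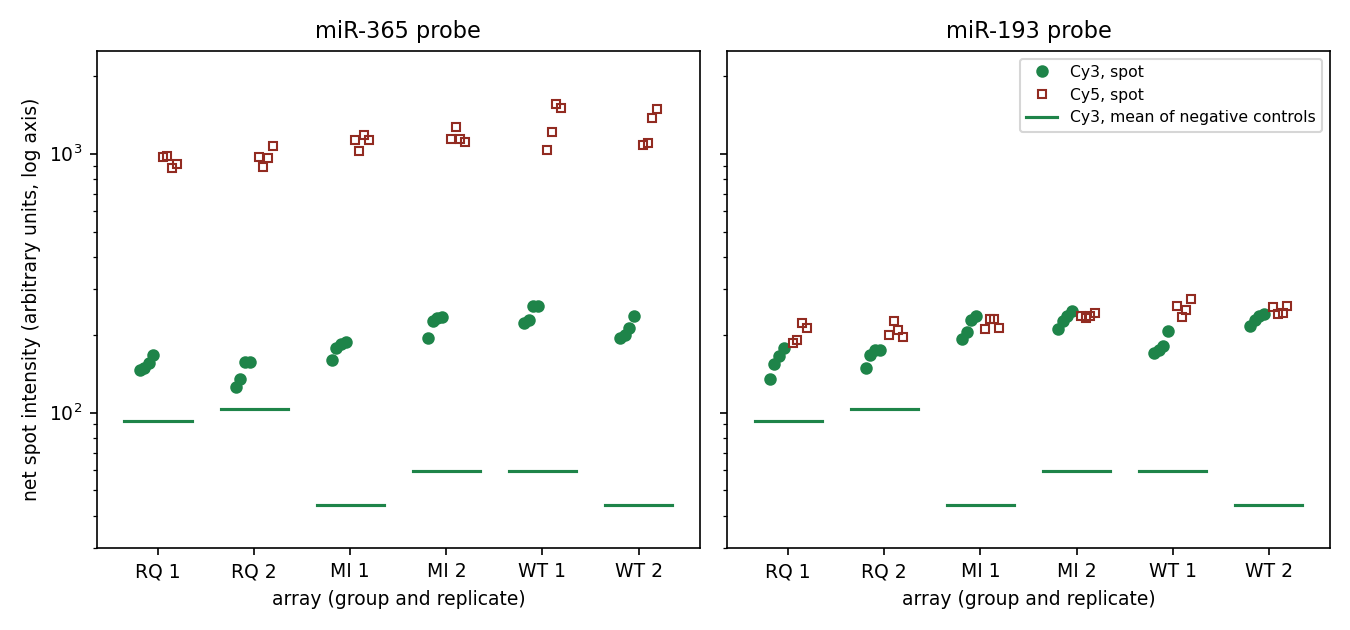
Net spot intensity (arbitrary units, log axis) of the miR-365 probe (left) and the miR-193 probe (right) on each RQ, MI and WT array, with 4 spots per dye as points and the mean Cy3 intensity of negative control spots as lines. The RQ arrays have the lowest mean Cy3 for both probes, while single RQ spots overlap MI spots for miR-365 and WT spots for miR-193. The negative control lines are highest on the same 2 arrays, at 93.05 and 102.8.

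Values were then normalised as log2 of Cy3 over Cy5, with a loess curve fitted within each array. For miR-365 this log2 ratio was -2.98 and -3.19 on the RQ arrays, -1.96 and -2.07 on the MI arrays, and -2.26 and -2.11 on the WT arrays. The RQ arrays stood clear of the other 4, and the MI arrays lay slightly above the WT arrays. Means were -3.09 ± 0.15 in RQ, -2.01 ± 0.08 in MI and -2.18 ± 0.11 in WT (SD, n = 2 each). In order of this ratio the groups ran RQ, WT, MI. In net Cy3 they ran RQ, MI, WT, so the order of MI and WT was not settled.

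The log2 change of miR-365 in RQ minus WT was -0.90 ± 0.13 (SE), a 1.87-fold lower ratio. This value belongs to the contrast that picked miR-365 and carries no test. In that contrast, 21.4% of tested probes were called by limma at an adjusted p under 0.05, 7.48% higher and 13.9% lower. Both RQ arrays lay below both WT arrays for 29.6% of tested probes, and below all 4 other arrays for 20.7%, or 61 probes. In these bulk samples, fewer cells with miR-365 and less miR-365 per cell cannot be told apart.

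In RQ minus MI, where the arrays shared a slide row, the log2 change of miR-365 was -1.07 ± 0.13 (SE), again given with no test. No WT array enters this difference of means. The share called in RQ minus MI was 10.9%, with 3.06% higher and 7.82% lower. Both RQ arrays lay below both MI arrays for 44.9% of tested probes. The median change over all tested probes was 0.03 in RQ minus WT and -0.10 in RQ minus MI, against which both values of miR-365 were low.

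miR-365 did not pass the test in MI minus WT. The WT arrays of this comparison also entered the contrast that picked miR-365, so the test is not independent of that choice. The log2 change was 0.17 ± 0.13 (SE), with a 95% interval of -0.14 to 0.49 and a limma adjusted p of 0.364. Differences of either sign lie within that interval. The direction itself turned under other scalings, with -0.02 after median centring, -0.14 with loess on bright probes, -0.08 in Cy3 alone and -0.34 from the scanner's processed signals. In this contrast 15.6% of tested probes were called, 9.18% higher and 6.46% lower.

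For miR-193 the log2 ratio was -0.996 and -1.13 on the RQ arrays, -0.12 and -0.34 on the MI arrays, and -0.92 and -0.49 on the WT arrays. The WT arrays were the most spread, and WT replicate 1 came within reach of the RQ arrays. Means were -1.06 ± 0.09 in RQ, -0.23 ± 0.16 in MI and -0.71 ± 0.31 in WT (SD, n = 2 each). The groups ran RQ, WT, MI in order of this ratio, as for miR-365. RQ and WT, neighbours in that order, differed by a log2 change of -0.36 ± 0.18 (SE), given with no test.

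Of the 2 comparisons of miR-193 that were tested, RQ minus MI passed and MI minus WT did not. In RQ minus MI, miR-193 fell by 0.83 on the log2 scale (SE 0.18, 95% interval -1.26 to -0.40, limma adjusted p = 0.0370), a 1.78-fold lower ratio. Both RQ arrays lay below both MI arrays, as was so for 44.9% of tested probes. The RQ arrays of this contrast are those on which its neighbour miR-365 was picked, so the test shares arrays with that choice. The share of tested probes called lower in this contrast was 7.82%. The call was lost when any 1 of the RQ or MI arrays was left out (adjusted p between 0.153 and 0.176), with spots marked as outliers kept (0.0563) and without background subtraction (0.0748), while the change itself stayed between -0.94 and -0.72 in those 6 fits.

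In MI minus WT, miR-193 had a log2 change of 0.47 ± 0.18 (SE) and did not pass (95% interval 0.04 to 0.91, limma adjusted p = 0.113). The WT arrays also entered the contrast that picked its neighbour miR-365, so this test shares arrays with that choice. Both MI arrays lay above both WT arrays, as was so for 45.6% of tested probes. The value depended on which WT array was kept: without WT replicate 2 the change was 0.69 with an adjusted p of 0.0375, and without WT replicate 1 it was 0.26 with an adjusted p of 0.332. The same 2 arrays moved the value in RQ minus WT, which was -0.14 without WT replicate 2 and -0.57 without WT replicate 1.

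Cy3 was also read on its own, after loess and a quantile scaling of the average intensities between arrays. For miR-365 the log2 Cy3 intensity was 6.96 and 6.98 on the RQ arrays, 8.05 and 8.06 on the MI arrays, and 8.06 and 8.20 on the WT arrays. For miR-193 it was 6.94 and 7.00 on the RQ arrays, 8.10 and 7.93 on the MI arrays, and 7.55 and 8.06 on the WT arrays. The RQ arrays were lowest for both microRNAs, and MI and WT overlapped for miR-193. On this scale the log2 change in RQ minus WT was -1.16 ± 0.10 for miR-365 and -0.84 ± 0.19 for miR-193 (SE).

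**Figure D2:**
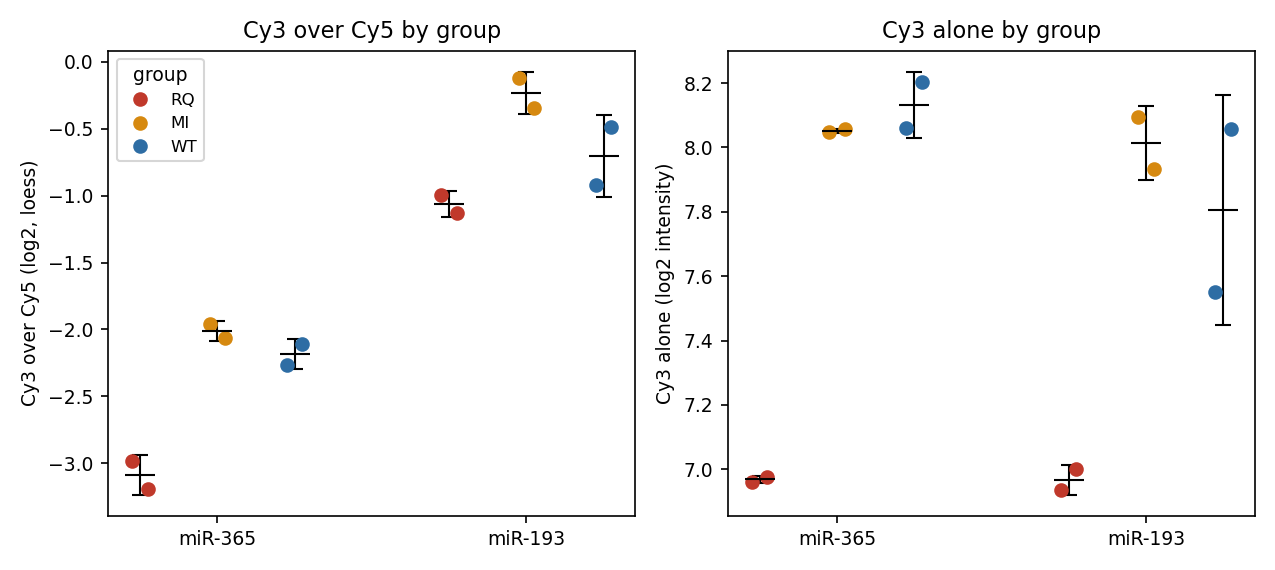
Log2 ratio of Cy3 over Cy5 after loess (left) and log2 Cy3 intensity alone (right) of miR-365 and miR-193, with 1 point per array, a bar at the mean of RQ, MI and WT and whiskers of 1 SD (n = 2 each). The RQ points are lowest for both microRNAs, and for miR-193 WT replicate 1 lies between RQ and the other arrays.

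The change of either member in RQ moved in size, not in sign, with the normalization. In RQ minus WT, the log2 change of miR-365 was -0.50 after median centring and -1.61 from the processed signals, the ends of its range over all settings. That of miR-193 was -0.44 after median centring and -1.28 from the processed signals, which was one end of its range. The other end was -0.14, without WT replicate 2. With every array kept, its smallest change was -0.25, without background subtraction. After median centring the changes of both members in RQ minus WT were thus nearly alike, whereas loess set miR-365 lower. Some settings also shifted the whole array: the median change of all tested probes in RQ minus WT was 0.10 after median centring, -0.20 with loess on bright probes, -0.19 in Cy3 alone and -0.26 from the processed signals. Relative to the median of its own setting, miR-365 lay between -1.58 and -0.60 and miR-193 between -1.02 and -0.31 over 14 settings that kept every array of the groups compared. The balance of calls moved as well. In RQ minus WT, 22 probes were called higher and 41 lower after loess, 47 and 20 after median centring, and 18 and 68 in Cy3 alone.

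**Figure D3:**
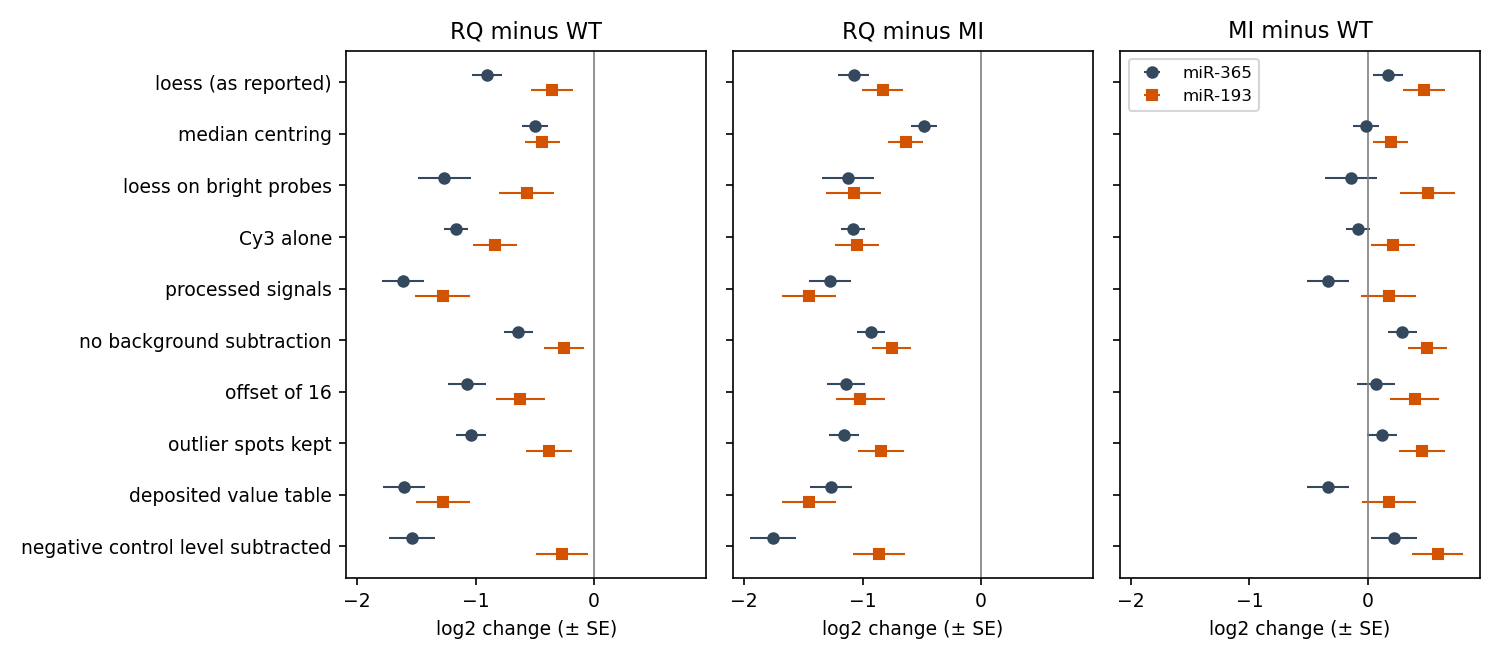
Log2 change of miR-365 (circles) and miR-193 (squares) in RQ minus WT, RQ minus MI and MI minus WT under 10 ways of scaling the arrays, with whiskers of 1 SE. All points for RQ lie below 0, with miR-365 in RQ minus WT between -1.61 and -0.50, and those of miR-365 in MI minus WT lie on both sides of 0.

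Members of one cluster can be compared within an array. The log2 ratio of miR-365 minus that of miR-193 was -1.99 and -2.06 on the RQ arrays, -1.84 and -1.72 on the MI arrays, and -1.34 and -1.61 on the WT arrays. After loess the offset was lowest in RQ and highest in WT, and the 3 groups did not overlap. How many other pairs did so was not counted. After median centring RQ minus MI was -0.48 for miR-365 and -0.63 for miR-193, so the RQ offset was then above that of MI. From the processed signals these changes were -1.28 and -1.45, with the RQ offset again above that of MI. The offset describes unequal change of the 2 probes and does not say which of them moved. After loess, the changes of the 2 members differed by 0.55 on the log2 scale in RQ minus WT, by 0.24 in RQ minus MI and by 0.30 in MI minus WT.

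Other neighbouring microRNA genes give a measure for those differences. Of 21 pairs of neighbours listed, 17 had both members tested, including miR-365 with miR-193. Over the other 16 pairs the 2 changes in RQ minus WT differed by 0.41 in the median, between 0.01 (miR-15b with miR-16) and 1.54 (miR-99b with miR-125a), and 5 pairs differed by more than miR-365 and miR-193. In RQ minus MI the median was 0.16, and 7 of the 16 pairs differed by more. In MI minus WT it was 0.31, and 8 differed by more. Both neighbours had changes under 0 in 7 of the other 16 pairs in RQ minus WT and in 10 in RQ minus MI. The 2 changes had the same sign, up or down, in 9 of the 16 pairs in RQ minus WT and 12 in RQ minus MI. The share among pairs of probes that are not neighbours was not counted. Both comparisons against WT share the WT arrays, and both comparisons of RQ share the RQ arrays.

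**Figure D4:**
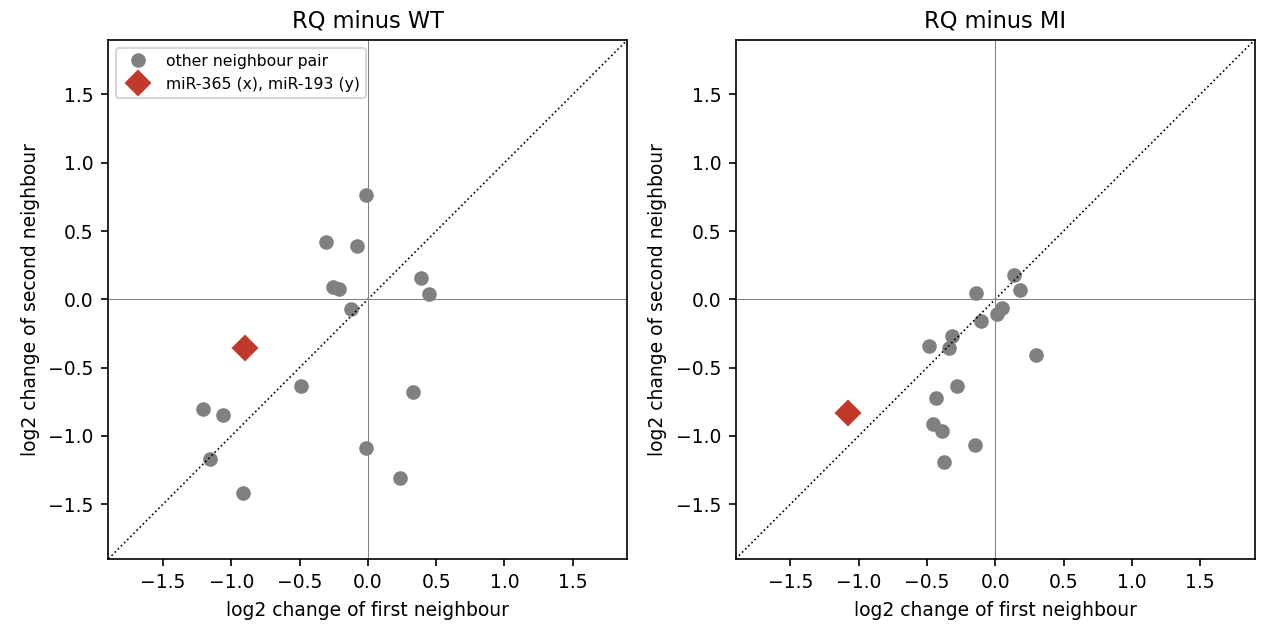
Log2 change of the first against the second member of 17 pairs of neighbouring microRNA genes in RQ minus WT (left) and RQ minus MI (right), with miR-365 and miR-193 as a diamond, the other 16 pairs as circles and a dotted line where both changes are equal. The diamond lies below 0 on both axes in both panels, at -0.90 and -0.36 in RQ minus WT.

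The probes whose profile over the 6 arrays was most like that of miR-365 were found by the root mean square difference of array profiles, each centred on its own mean. They were miR-27a (0.0901), miR-148b (0.118), miR-145 (0.185), miR-500 (0.194) and miR-320 (0.194), where the median over 293 probes was 0.501. miR-27a, known in mouse as a brake on brown and beige fat formation, had log2 changes of -0.85 in RQ minus WT and 0.06 in MI minus WT, beside -0.90 and 0.17 for miR-365. miR-148b, a member of the miR-148 and miR-152 family, had -0.80 and 0.02. The changes of miR-145, a smooth muscle microRNA, were -0.68 and 0.29. In RQ minus WT, miR-500 had -0.65 and miR-320 had -0.95 after loess, and both turned sign after median centring (0.11 and 0.24), where miR-365 did not. All 5 names were drawn by their likeness to a member chosen on these arrays, so their values are a description.

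miR-193 was 7th of 293 in likeness to miR-365, with a difference of 0.241. In the other direction, miR-365 was 20th of 293 in likeness to miR-193. The probes closest to miR-193 were miR-290 (0.162), the first member of a stem cell cluster, miR-29c (0.167), miR-744 (0.168), miR-370 (0.174) and miR-145 (0.183), with a median of 0.400 over all probes. Their log2 changes in RQ minus MI were -0.64, -0.63, -1.16, -0.47 and -0.97 in that order, beside -0.83 for miR-193. Their profiles thus shared with miR-193 low RQ arrays and higher MI arrays. In RQ minus WT the changes of these 5 probes lay between -0.68 and -0.12, and 4 of them turned sign under at least 1 setting.

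Because the cluster is known from the choice between brown fat and muscle, 19 microRNAs linked to either fate were listed, of which 17 were on the array and tested. The list was drawn up with earlier results of these data known, so its counts and p-values in every comparison are a description. It also holds miR-27a, the probe most like miR-365. In RQ minus WT, 5 fell, 1 rose and 11 did not pass limma's test, where 13.9% of all tested probes were called lower and 7.48% higher. The 5 that fell were miR-27b (-1.42, adjusted p = 0.00808), miR-26a (-1.41, 0.00808), miR-1 (-1.03, 0.0471), miR-30c (-0.92, 0.0120) and miR-27a (-0.85, 0.00808), but these calls depended on the scaling. After median centring the values were -0.69 for miR-27b, -0.42 for miR-26a, 0.02 for miR-1, 0.23 for miR-30c and -0.44 for miR-27a, and miR-26a (limma adjusted p = 0.127), miR-1 and miR-30c were not called. With loess on bright probes miR-27a was not called (-0.71, limma adjusted p = 0.0540). Without RQ replicate 1, miR-26a alone of the 5 was still called, with limma adjusted p between 0.0523 and 0.235 for the other 4. miR-1 is a muscle microRNA, while miR-26a and miR-30c have been linked to fat cell formation in human cells. The 1 that rose was miR-155, known in mouse to hold back brown fat differentiation. Neither WT array gave a Cy3 signal well above background for it, so only a bound was had: in Cy3 alone its log2 intensity was 7.94 in RQ and 6.37 in WT, at least 2.97-fold higher in RQ, with a limma adjusted p of 0.00273 in that fit. This bound is open to dye bias, since no dyes were swapped, and holds for the Cy3 scale only. The fitted log2 ratio of Cy3 over Cy5 changed by 1.35 after loess (limma adjusted p = 0.00808) and by 1.19 without background subtraction. The median change of the 17 was -0.02 where that of all tested probes was 0.03, with members on both sides of 0.

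In RQ minus MI, 2 of the 17 fell and 3 rose by limma's test, with a median of -0.08, where 7.82% of all tested probes were called lower and 3.06% higher. Those that fell were miR-27a at -0.91 and miR-27b at -1.19 (limma adjusted p = 0.0146 and 0.0157). Those that rose were miR-155 at 1.11, miR-34a at 0.79 and miR-26b at 1.46 (limma adjusted p = 0.0157, 0.0376 and 0.0146). Calls in RQ minus MI depended on the processing and on single arrays. Over all tested probes 32 were called after loess and 7 without background subtraction. Nearly all calls were lost when any 1 RQ or MI array was left out. In MI minus WT, 1 rose and 2 fell, where 9.18% of all tested probes were called higher and 6.46% lower. The one that rose was miR-206, a skeletal muscle microRNA, at 1.49 (limma adjusted p = 0.0340), and those that fell were miR-26a at -1.38 and miR-26b at -1.23 (limma adjusted p = 0.00375 and 0.0114). Calls in MI minus WT depended on the processing too. Over all tested probes 27 were called higher and 19 lower after loess, against 17 and 21 with median centring. The values of miR-206, miR-26a and miR-26b in MI minus WT under other settings are not given here. Among members that did not pass in RQ minus WT, miR-206 had a log2 change of 0.77 (limma adjusted p = 0.142). Of the 17, miR-203 and miR-378 were not well above background in Cy3 in any group, and miR-133b in neither RQ array.

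Markers of 5 other cell types were brighter on both RQ arrays than on both WT arrays before normalization, and those of epithelium and of embryonic stem cells were not. The median tested probe was itself 1.43 times as bright in net Cy3 in RQ as in WT, and negative control spots were brighter in RQ too. The sums below were corrected for neither, so they do not show a gain of these cell types. The summed net Cy3 of 3 muscle microRNAs was between 2340 and 3246 on the RQ arrays, 1918 and 2619 on the MI arrays and 1160 and 1180 on the WT arrays. For 4 mesenchymal microRNAs it was between 3263 and 3708 on the RQ arrays, 2068 and 2995 on the MI arrays and 1408 and 1963 on the WT arrays. For 2 neural microRNAs it was between 1203 and 1320 on the RQ arrays, 733 and 880 on the MI arrays and 770 and 774 on the WT arrays. These sums ran opposite to the net Cy3 of miR-365 and miR-193 in RQ and WT, as did the median tested probe. The single liver microRNA and the 5 blood microRNAs were also brightest on the RQ arrays (552 to 567 and 1291 to 1340, against 297 to 311 and 1079 to 1115 on the WT arrays). The RQ arrays lay within the range of the WT arrays for 6 epithelial microRNAs (2057 to 2116 in RQ, 1843 to 2633 in WT) and for 7 microRNAs of embryonic stem cells (61962 to 64737 in RQ, 46098 to 81813 in WT). After normalization, in RQ minus WT, 3 of the 7 stem cell microRNAs were called lower and 0 higher, with a median log2 change of -0.54. In MI minus WT 3 were also called lower and 0 higher, with a median of -0.43, where miR-365 was at 0.17. In RQ minus MI 1 was called lower and 3 higher, with a median of -0.40, where miR-365 was at -1.07. Of the other lists in RQ minus WT, 1 of 3 muscle and 1 of 4 mesenchymal microRNAs were called lower and 0 higher. There, 1 of 5 blood and 1 of 6 epithelial microRNAs were called lower and 1 of each higher. Of the neural and liver microRNAs, 0 of 2 and 0 of 1 were called. Over all tested probes 13.9% were called lower and 7.48% higher in RQ minus WT. These shares were 6.46% and 9.18% in MI minus WT, and 7.82% and 3.06% in RQ minus MI. miR-144 (blood) and miR-203 (epithelium) were below background in Cy3 on every array. The part of cell makeup in the values of miR-365 and miR-193 was not tested.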

How the data were processed

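Spot intensity values of both dyes, local background intensity and the scanner's processed intensity were deposited by the authors for 6 arrays, as output of the scanner software (Agilent Feature Extraction, version 9.5.1.1), per the file headers. Per the file headers, the deposited log10 ratio divides processed Cy5 by processed Cy3, and the deposited value table equalled it with the sign turned (largest difference 0). Deposited marks for outlier, saturated and well-above-background spots are 0 or 1. Files listed 1932 of 14712 features; the others were not analysed here.

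Background was corrected by normexp at an offset of 50, and a loess curve then normalised each array (control and outlier spots at weight 0) in limma 3.58.1 under R 4.3.3. Outlier spots (60 to 99 per array) were removed and the log2 Cy3 over Cy5 values of the 4 spots per probe averaged. Testing required a share over 0.5 of a probe's spots well above background, in one dye or the other, on 2 or more arrays. Of 334 probes, 294 met this (262 in Cy3, 275 in Cy5). Groups were compared over all 6 arrays by lmFit and eBayes (degrees of freedom 3 residual, 2.99 prior), with Benjamini-Hochberg adjustment over 294 probes and calls at an adjusted p under 0.05. The fit was tried on simulated data with the same spread for every probe, which held none of the dye and background effects of these arrays. Alternatives were the dye normalization, channel, background correction, offset, outlier spots, filter, value table, arrays in the fit and replicate number as a block.

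The members and all lists were chosen with earlier results of these data known. Named were the members, the 5 probes most like either, the fate list (values for called members and the 6 largest changes) and the neighbour pairs. Probe sequences were matched to RefSeq tables of GRCm38.p6.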

Additional observations from a re-analysis of the deposited data

How the results depend on the processing

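Limits: 2 arrays a group, no dye swap, 1 probe per member, and RQ spots near the negative controls. Where an array was left out, the lone array of a group was assumed to vary like the other groups.

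Over all settings, the changes of both members in RQ stayed below 0. miR-365 in RQ minus WT was -0.50 with median centring, -1.26 with loess on bright probes, -1.16 in Cy3 alone, -1.61 with processed signals, -0.64 without background subtraction, -1.07 at an offset of 16, -1.04 with outlier spots kept, -1.60 in the deposited value table and -1.54 with the negative control level subtracted (added after seeing the data), and -1.01 to -0.80 with an array left out. In RQ minus MI it was -0.48 (median centring), -1.28 (processed signals), -0.93 (no background subtraction), -1.27 (value table), -1.76 (negative controls) and -1.18 to -0.97 with an array left out. miR-365 in MI minus WT turned to -0.02 (median centring), -0.14 (bright probes), -0.08 (Cy3 alone) and -0.34 (processed signals and value table). miR-193 in RQ minus WT was -0.57 (bright probes), -0.84 (Cy3 alone), -1.28 (processed signals and value table) and -0.62 (offset 16). It was -0.44 (median centring), -0.38 (outlier spots kept), -0.27 (negative controls), -0.25 (no background subtraction) and -0.57 to -0.14 with an array left out. In MI minus WT it was 0.26 to 0.69, and in RQ minus MI -0.94 to -0.72, with an array left out, and -0.75 without background subtraction and -0.84 with outlier spots kept, where the call was lost. Of the 19 alternatives for that call, 13 kept it.

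Other microRNAs that turned sign in RQ minus WT were, with median centring, miR-500 (0.11), miR-320 (0.24), miR-290 (0.13), miR-29c (0.05), miR-1 (0.02) and miR-30c (0.23); miR-29c also with bright probes (0.44) and without WT replicate 2 (0.24, in a range of -0.48 to 0.24 with an array left out), miR-370 without WT replicate 2 (0.02, in a range of -0.33 to 0.02) and miR-744 in Cy3 alone (0.59). By Pearson correlation, 3 of the 5 names most like miR-365 and 2 of those most like miR-193 stayed.

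Calls in RQ minus WT numbered 63, and 5 to 60 with an array left out (5 without RQ replicate 1, 40 without RQ replicate 2). In MI minus WT they numbered 46, with 27 from only the arrays of the groups compared and 6 to 63 with an array left out. In RQ minus MI they numbered 32, with 19 (bright probes), 7 (no background subtraction), 14 (outlier spots kept) and 0 to 48 with an array left out; the 0 calls by limma came with 47 to 60 probes at an unadjusted p under 0.05. Calls higher and lower were 27 and 19 in MI minus WT, against 17 and 21 with median centring and 9 and 23 with processed signals, and 9 and 23 in RQ minus MI, against 19 and 12 with median centring. The cause of these shifts was not tested.

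Same-numbered replicates deviated together at r = 0.119 (RQ and WT), 0.182 (MI and WT) and 0.041 (RQ and MI), so the number was not taken as a pairing. With it as a replicate block, calls were 59, 39 and 38 in RQ minus WT, MI minus WT and RQ minus MI. miR-193 in RQ minus MI had an adjusted p of 0.0474, and the block changed no call of miR-365 or miR-193.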
